A study of Mus musculus with 4 samples.

Results

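The calgranulin genes S100a8 and S100a9 and 6 genes of neutrophil granule proteins (Ltf, Camp, Ngp, Lcn2, Mpo and Elane) were followed in mouse peritoneal macrophages treated with TGFb2 or PBS. They were taken as every probe set whose symbol in the platform annotation is exactly one of these names, dim probe sets included, which gave 10 probe sets for all 8 genes among the 12488 probe sets of the array. Lcn2 and Mpo had 2 probe sets each. The donors were BALB/c females of 6 to 8 weeks. They received 2 ml of 3% thioglycolate, an irritant that recruits macrophages, into the peritoneum, and exudate cells were harvested 4 days later. The cells were then kept overnight in serum-free medium with porcine TGFb2 (5 ng, with no volume given) or with PBS, the vehicle. Adherent cells, of which the labels give over 95% as positive for the macrophage surface antigen that Adgre1 encodes, provided total RNA for 2 Affymetrix arrays with TGFb2 and 2 with PBS. No label states that replicates were separate animals or cultures, so p-values cover only array-to-array spread, which may be technical.

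S100a8 and S100a9 are small calcium-binding proteins that pair as calprotectin, fill the cytosol of neutrophils, and are also made by monocytes and by stimulated macrophages. Secreted calprotectin binds metal ions and signals through Toll-like receptor 4. Granule proteins are made in waves while a neutrophil matures in the bone marrow. Mpo and Elane belong to the azurophil granules of the early stages, and Ltf, Camp, Ngp and Lcn2 to the specific granules of later ones. Mature neutrophils carry little granule mRNA, while Lcn2 can also be switched on in macrophages and epithelia by inflammatory signals.

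Values were MAS5 signals, a background-corrected intensity per probe set on a linear scale, with 2% trimmed means of 150.12 on each of the 4 arrays and median signals between 40.1 and 45.6. Over the probe sets that were tested, log2 signals had a correlation of 0.967 between the TGFb2 arrays and of 0.978 between the PBS arrays. Adgre1 itself had signals of 470.9 and 747.7 with TGFb2 and of 488.1 and 779.9 with PBS. Probe sets with a mean signal of at least 25.1 over all 4 arrays were tested with limma on log2(signal + 15). Among 7453 of them, 1.17% passed a Benjamini-Hochberg adjusted p of 0.05, with 0.805% higher and 0.362% lower with TGFb2.

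S100a8 rose with TGFb2, and none of the other 3 tested probe sets passed. Of the 10 probe sets, 4 lay at or above the filter (S100a8, Camp, Elane and the brighter one of Lcn2) and 6 below it. Of the 4 tested, 1 rose, 0 fell and 3 did not pass, where 1.17% of all tested probe sets were called. S100a9, Ltf, Ngp and Mpo had no tested probe set, and their signals and those of the dimmer Lcn2 probe set ran from 3.4 to 28.9 over the 4 arrays. Among all 10 probe sets, the groups did not overlap for 2, S100a8 and Camp, against a background of 38.9% of all probe sets other than controls.

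**Figure D1:**
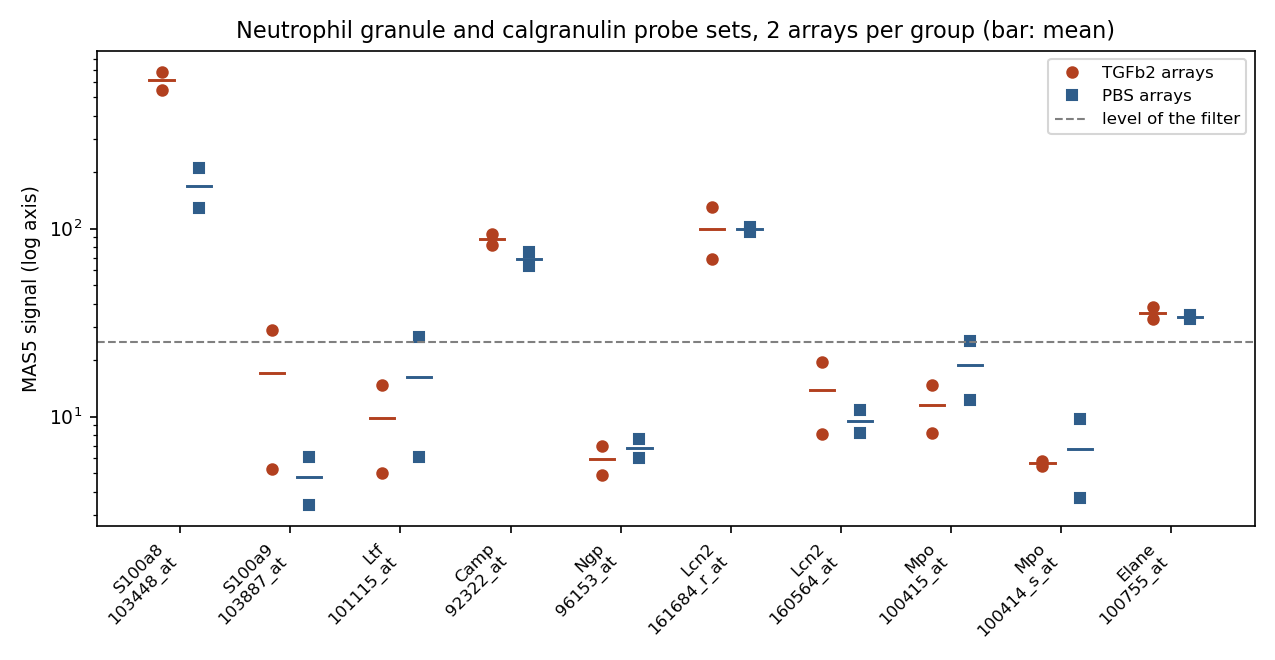
MAS5 signal (log axis) of the 10 probe sets on each array, with TGFb2 arrays as circles on the left and PBS arrays as squares on the right of each pair, bars at the group means and a dashed line at the filter level of 25.1. S100a8 has signals of 550.6 and 679.2 with TGFb2 and of 128.7 and 210.9 with PBS, and 6 probe sets have means below the line.

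S100a8, on chromosome 3, had signals of 550.6 and 679.2 on the TGFb2 arrays and of 128.7 and 210.9 on the PBS arrays. Both TGFb2 arrays lay above both PBS arrays, and the lower TGFb2 signal was 2.61 times the higher PBS signal. The PBS arrays differed from each other by a factor of 1.64 and the TGFb2 arrays by 1.23. The mean signal was 615 ± 90.9 with TGFb2 and 169.8 ± 58.1 with PBS (SD, n = 2 arrays each), a 3.62-fold ratio of means. The log2 difference was 1.80 with a standard error of 0.24 and a 95% interval of 1.23 to 2.36 (limma, adjusted p = 0.0244). This placed S100a8 at rank 23 by size among the 60 probe sets that rose. An exact permutation test of the 2 groups of 2 arrays cannot give a two-sided p below 0.333.

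The call rested on both TGFb2 arrays and on the variance model, while the size changed less. Without TGFb2 replicate 1 the log2 difference was 1.95 (limma adjusted p = 0.0969), and without TGFb2 replicate 2 it was 1.65 (limma adjusted p = 0.0944). Leaving out PBS replicate 1 or 2 gave 1.47 and 2.12, both past the threshold. The difference of 1.80 also missed the threshold when dim probe sets were tested too (limma adjusted p = 0.107). That fit called 0 of the 10 probe sets, 1 of which had an unadjusted p under 0.05, and 0.0483% of all 12422. The threshold was missed as well without the intensity trend of the variance (limma adjusted p = 0.0786). Each of these fits called fewer probe sets of the whole array than the fit as reported, so lost calls were not particular to S100a8.

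**Figure D2:**
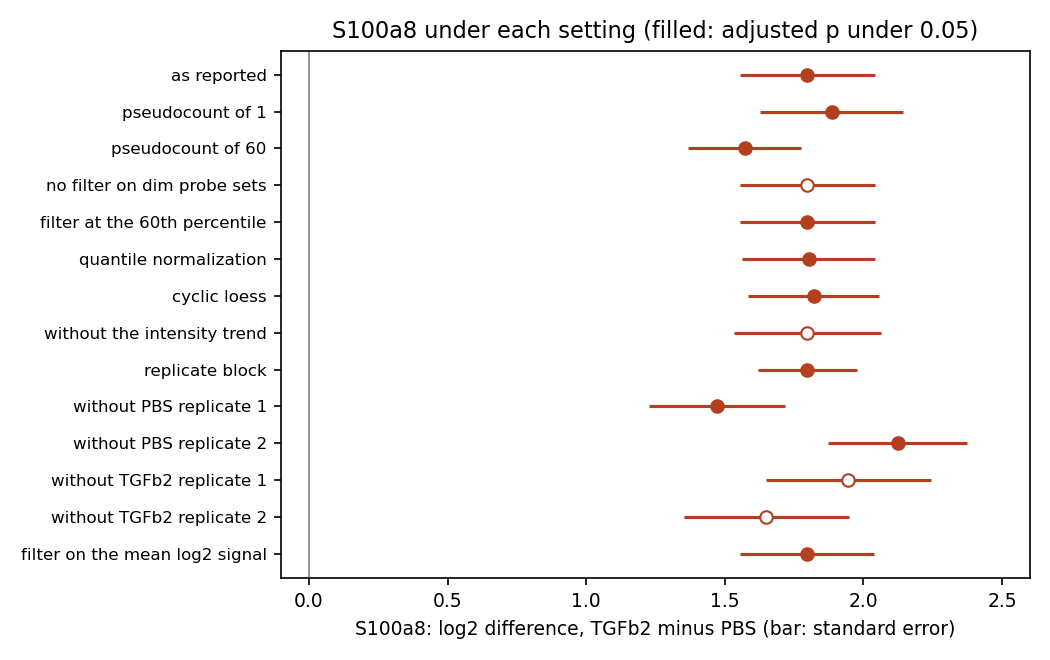
Log2 difference of S100a8 (TGFb2 minus PBS, bars of 1 standard error) as reported and under 13 alternative settings, with filled points where the limma adjusted p is under 0.05. The difference runs from 1.47 to 2.12, and it passes in 10 of these 14 settings.

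S100a9, which encodes the binding partner of S100a8, had signals of 28.9 and 5.3 with TGFb2 and of 3.4 and 6.1 with PBS. One TGFb2 array lay above the PBS arrays and the other between them, so the groups overlapped. The mean signal was 17.1 ± 16.7 with TGFb2 and 4.75 ± 1.91 with PBS (SD, n = 2 arrays each), below the filter, so S100a9 was not tested there. On the log2(signal + 15) scale the difference was 0.60. In the fit that kept dim probe sets, S100a9 had an unadjusted p of 0.155 in limma (adjusted p = 0.701). The difference ran from 0.04 to 1.30 over the settings, since values this dim depend on the pseudocount and on single arrays. Whether this probe set detects the S100a9 transcript well was not tested.

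S100a8 and S100a9 lie next to each other in the RefSeq gene order of chromosome 3, with no other protein-coding gene between them. The 250 bases before each start are shown because these neighbours had unlike signals on the arrays. The sequences are those of RefSeq for GRCm38.p6, that of S100a8 from chr3:90668821-90669070 on the plus strand and that of S100a9 from chr3:90695722-90695971 on the minus strand. Capitals mark matches to a Smad motif (CAGAC) or a C/EBP motif (TTGCNNAA), each searched on both strands.
S100a8: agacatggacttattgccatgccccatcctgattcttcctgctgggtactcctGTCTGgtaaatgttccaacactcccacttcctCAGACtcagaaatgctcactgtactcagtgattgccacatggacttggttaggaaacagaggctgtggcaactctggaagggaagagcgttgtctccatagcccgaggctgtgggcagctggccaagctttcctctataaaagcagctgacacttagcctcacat
S100a9: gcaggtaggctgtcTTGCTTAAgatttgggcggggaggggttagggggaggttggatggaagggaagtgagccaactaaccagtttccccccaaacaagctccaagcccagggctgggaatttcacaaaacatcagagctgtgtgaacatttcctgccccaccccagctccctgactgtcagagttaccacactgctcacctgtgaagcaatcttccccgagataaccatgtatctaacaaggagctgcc
The S100a8 window held 2 Smad matches, 197 and 165 bases before the start, and no C/EBP match. The S100a9 window held 1 C/EBP match, 236 bases before the start, and no Smad match. At least 1 Smad match was present in 42.2% and at least 1 C/EBP match in 9.57% of the 32841 promoter windows of this length. The S100a8 window also held the TATA motif TATAAA on its own strand, 30 bases before the start, as did 7.59% of all windows. The AP-1 motif TGANTCA, searched on both strands, was in neither window and in 6.75% of all windows. Matches in these windows did not overlap one another. They describe letters in the sequence and show no binding.

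Of the azurophil granule genes, Elane, the neutrophil elastase, had signals of 33.1 and 38.4 with TGFb2 and of 32.9 and 34.6 with PBS. The groups overlapped, and all 4 values lay close above the filter level. The log2 difference was 0.06 with a 95% interval of -0.53 to 0.64 (limma adjusted p = 0.965). Mpo, the myeloperoxidase that makes hypochlorous acid, had 2 probe sets below the filter. The brighter one had signals of 14.8 and 8.2 with TGFb2 and of 25.4 and 12.2 with PBS. The dimmer one, whose identifier marks probes that related sequences may share, had 5.8 and 5.5 with TGFb2 and 9.7 and 3.7 with PBS. Both probe sets overlapped between the groups, and their log2 differences were -0.33 and -0.06, with no test at this level.

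Of the specific granule genes, Camp, the precursor of the antimicrobial peptide cathelicidin, had signals of 94.3 and 82.4 with TGFb2 and of 74.8 and 63.4 with PBS. Both TGFb2 arrays lay above both PBS arrays, as in one direction or the other for 42.9% of tested probe sets. The mean was 88.4 ± 8.41 with TGFb2 and 69.1 ± 8.06 with PBS (SD, n = 2 arrays each). The log2 difference of 0.30 had a 95% interval of -0.16 to 0.76 and did not pass (limma adjusted p = 0.624).

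Lcn2, lipocalin 2, which binds bacterial siderophores, had 2 probe sets that differed in brightness. The brighter one, whose identifier marks probes chosen after some selection rules were dropped and which may be less specific, had signals of 130.7 and 68.7 with TGFb2 and of 95.6 and 102.7 with PBS. The TGFb2 arrays lay on either side of the PBS arrays, with a log2 difference of -0.05 and a 95% interval of -0.68 to 0.59 (limma adjusted p = 0.973). The dimmer probe set had 19.5 and 8.1 with TGFb2 and 8.2 and 10.8 with PBS, and these groups overlapped too. On this scale it differed by 0.21, with no test.

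Ltf, the iron-binding lactoferrin, had signals of 14.8 and 5.0 with TGFb2 and of 26.4 and 6.1 with PBS. Ngp, the neutrophilic granule protein, had 4.9 and 7.0 with TGFb2 and 7.6 and 6.0 with PBS. Both genes overlapped between the groups, with log2 differences of -0.28 and -0.06 and no test. When all dim probe sets were kept, the 6 dim probe sets of the 8 genes had unadjusted p between 0.155 and 0.764 in limma. Detection calls were not used here, so no gene was known to be present or absent.

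The change of S100a8 was set against those of the other tested genes within each array. The log2 signal of S100a8 exceeded that of Camp by 2.37 and 2.83 on the TGFb2 arrays and by 0.68 and 1.53 on the PBS arrays. This gave a difference of 1.5 between the changes of S100a8 and Camp. The same difference was 1.85 against the brighter Lcn2 probe set and 1.74 against Elane. In all 3 comparisons the TGFb2 arrays lay above the PBS arrays, and the exact permutation test gave the smallest two-sided p it allows, 0.333. With 2 arrays per group this test cannot pass a threshold of 0.05. All 3 comparisons use the same S100a8 signals, whose groups did not overlap by themselves, so they are not 3 independent results.

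Most neutrophil markers lay below the filter. Of 13 surface and lineage markers on the array, 10 lay below the filter in all of their 12 probe sets, with signals between 1.2 and 33.4. Ly6g, the defining surface antigen of mouse neutrophils, had 7.0 and 10.8 with TGFb2 and 9.0 and 11.7 with PBS. Cxcr2, the chemokine receptor that guides neutrophils, had 22.4 and 8.8 with TGFb2 and 11.2 and 9.8 with PBS. Gfi1, a transcription factor of granulocyte development, had 1.2 and 2.1 with TGFb2 and 8.7 and 4.7 with PBS. The brightest probe sets of these 10 genes summed to 141.4 and 97.7 with TGFb2 and to 122.6 and 137.8 with PBS. The summed signal overlapped between the groups. All of these probe sets lay below the filter, and whether their sum follows the number of neutrophils was not tested.

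The other dim markers were Il1r2, the decoy receptor of interleukin 1, Padi4, which citrullinates histones, the collagenase Mmp8, the integrin-like chain Itgb2l, the histidine decarboxylase Hdc, G0s2 and Ceacam10. Signals of their brightest probe sets ran from 1.8 for Hdc to 33.4 for G0s2 with TGFb2 and from 3.1 for Hdc to 22.9 for Itgb2l with PBS. Itgb2l, at 11.2 and 9.3 with TGFb2 and 17.9 and 22.9 with PBS, and Gfi1 and Hdc were lower on both TGFb2 arrays. Ceacam10 was higher on both. Groups did not overlap for 32.9% of all probe sets below the filter.

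Of the 3 tested neutrophil markers, 0 passed in their brightest probe sets and 2, both lower with TGFb2, had an unadjusted p under 0.05 in limma. That level was reached by 12.2% of all 5635 tested genes, the background for each such count below. The formyl peptide receptor Fpr2 had signals of 7.4 and 13.6 with TGFb2 and of 22.0 and 87.5 with PBS (limma adjusted p = 0.359). It passed the filter only through the PBS group, where it is high and where 1 array decided the mean. The leukotriene B4 receptor Ltb4r1 had 33.3 and 89.7 with TGFb2 and 112.5 and 142.9 with PBS (limma adjusted p = 0.309). Probe sets of Csf3r, the receptor of granulocyte colony-stimulating factor, which neutrophils and macrophages carry, disagreed. The brightest had 159.9 and 201.5 with TGFb2 and 214.9 and 188.0 with PBS, a log2 difference of -0.15 (limma adjusted p = 0.809). Another rose, with 205.2 and 216.2 with TGFb2 and 57.0 and 47.2 with PBS, a log2 difference of 1.75 (limma adjusted p = 0.0141). The remaining Csf3r probe set differed by 0.01 (limma adjusted p = 0.994). In RNA from a mixed culture, a change in the number of cells of a type and in RNA per cell cannot be told apart.

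**Figure D3:**
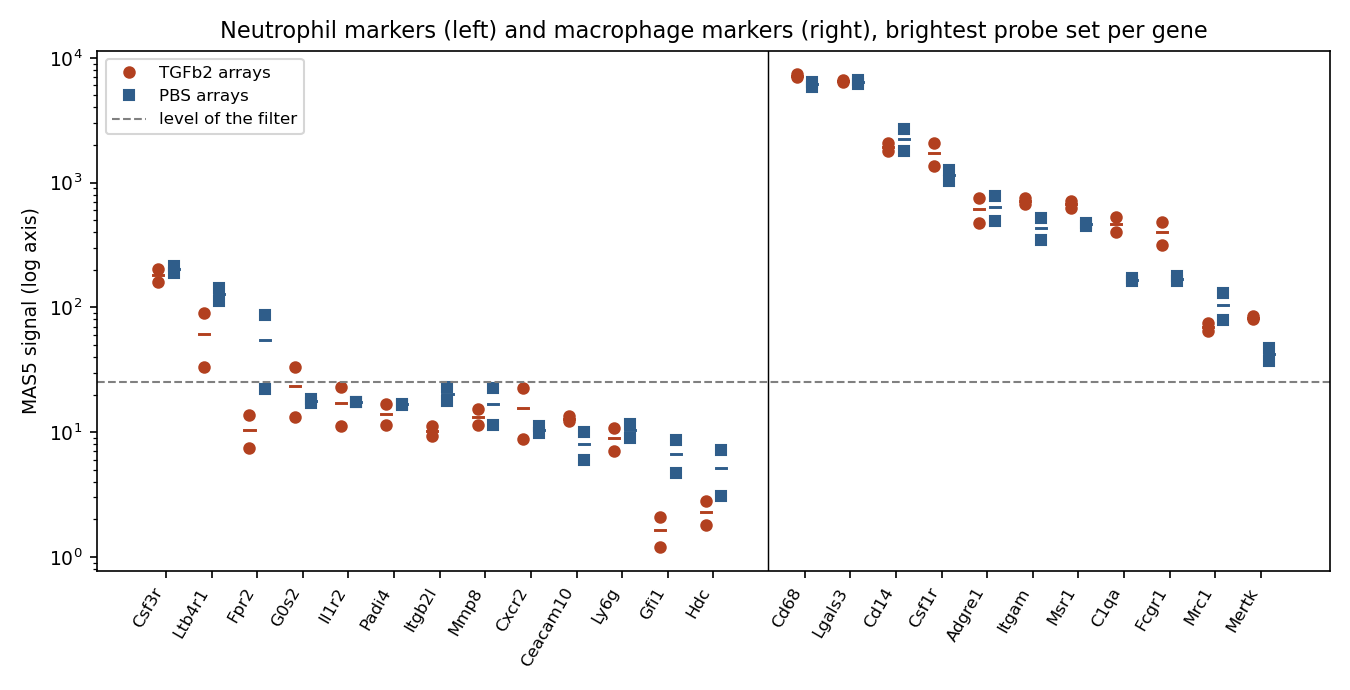
MAS5 signal (log axis) of 13 neutrophil markers, left of the vertical line, and 11 macrophage markers, right of it, each by its brightest probe set, with TGFb2 arrays as circles, PBS arrays as squares, bars at the group means and a dashed line at the filter level of 25.1. Of the neutrophil markers only Csf3r, Ltb4r1 and Fpr2 have a mean over all 4 arrays above the line, whereas all 11 macrophage markers do. The TGFb2 bar of Fpr2, at 10.5, lies below the line.

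All 11 macrophage markers on the array were tested. Of these, 1 rose and 10 did not pass, and 7, all higher with TGFb2, had an unadjusted p under 0.05 in limma, with a median log2 difference of 0.52, against 0.002 over 5635 tested genes, of which 49 rose and 18 fell. C1qa, a chain of the complement recognition protein C1q, was the one that rose, with 532.3 and 404.3 with TGFb2 and 163.0 and 171.0 with PBS (limma adjusted p = 0.0244). Their signals summed to 20131.5 and 20653.4 with TGFb2 and to 17845.3 and 17987.3 with PBS. These sums were higher on both TGFb2 arrays, and their part in the rise of S100a8 was not tested.

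Markers of other cells of the exudate were counted in the same way. All 5 eosinophil markers on the array, lay below the filter, with sums of 65.2 and 33.1 with TGFb2 and of 35.2 and 33.4 with PBS. Of 3 tested mast cell and basophil markers 0 passed, and the protease gene Cpa3 had 50.1 and 34.0 with TGFb2 and 24.7 and 13.1 with PBS (limma adjusted p = 0.409), passing the filter only through the TGFb2 group. This Cpa3 probe set has the identifier type of the brighter Lcn2 one and may be less specific. The other Cpa3 probe set lay below the filter and differed by -0.10. The tryptase gene Tpsb2 had 186.4 and 145.6 with TGFb2 and 125.3 and 112.1 with PBS (limma adjusted p = 0.444). Its other tested probe set had 57.3 and 64.9 with TGFb2 and 24.4 and 36.5 with PBS (limma unadjusted p = 0.0175, adjusted p = 0.276). In their brightest tested probe sets, 1 of the mast cell markers had an unadjusted p under 0.05 in limma. Of 6 tested B cell markers and 2 tested T and NK cell markers 0 passed in limma in their brightest probe sets, and 0 had an unadjusted p under 0.05. The B cell gene Ms4a1, named after its values were seen, differed by -0.08 in its brightest probe set. Its other probe set differed by -1.07 (limma unadjusted p = 0.0464, adjusted p = 0.417). The B cell genes Cd22 and Blk differed by 0.35 and -0.34, and Gzmb and Cd4 by -0.31 and -0.23. Gzmb, with a mean of 21.75 with TGFb2 and of 30.3 with PBS, passed the filter only through the PBS group. Of 7 tested fibroblast and mesothelial markers, Col1a1 rose by 1.29 and Dcn fell by 1.63 on the log2 scale (limma adjusted p = 0.0215 and 0.0265). The other Col1a1 probe set rose by 2.72 (limma adjusted p = 0.00178). The collagen I chain Col1a1 and the proteoglycan gene Dcn thus moved in opposite directions, and 5 of these markers did not pass in their brightest probe sets. Of the 7, 3 had an unadjusted p under 0.05 in limma, 1 higher and 2 lower. The probe sets of Col1a2, another collagen I chain named after its values were seen, disagreed, with differences of 0.16 for the brightest and 1.86 for the other (limma adjusted p = 0.779 and 0.0181). The median of the list was -0.44 over the brightest probe sets and 0.18 over all tested ones.

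Other granule genes of neutrophils were taken from a list that includes lysosomal and oxidase genes of macrophages. Of 16 on the array 10 were tested, of which 1 rose, 0 fell and 9 did not pass, with a median log2 difference of 0.19. An unadjusted p under 0.05 was reached by 5 of the 10 in limma, 4 higher and 1 lower with TGFb2. The gene that rose was Man2b1, a lysosomal mannosidase, with 3563.8 and 3433.1 with TGFb2 and 1946.9 and 1526.1 with PBS (limma adjusted p = 0.0312). The other Man2b1 probe set, which was dimmer, overlapped between the groups and differed by 0.12 (limma adjusted p = 0.92). Prtn3 and Ctsg, serine proteases of azurophil granules named after their values were seen, lay below the filter. Prtn3, which neighbours Elane on chromosome 10, had 20.5 and 13.8 with TGFb2 and 11.1 and 7.9 with PBS. Ctsg had 5.6 and 2.1 with TGFb2 and 2.7 and 1.3 with PBS. Hp, the haemoglobin-binding haptoglobin, also named after its values were seen, had 629.5 and 1418.7 with TGFb2 and 219.6 and 562.4 with PBS. Its groups did not overlap, but its replicates lay far apart and it did not pass (log2 difference 1.39, 95% interval 0.29 to 2.48, limma adjusted p = 0.288).

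**Figure D4:**
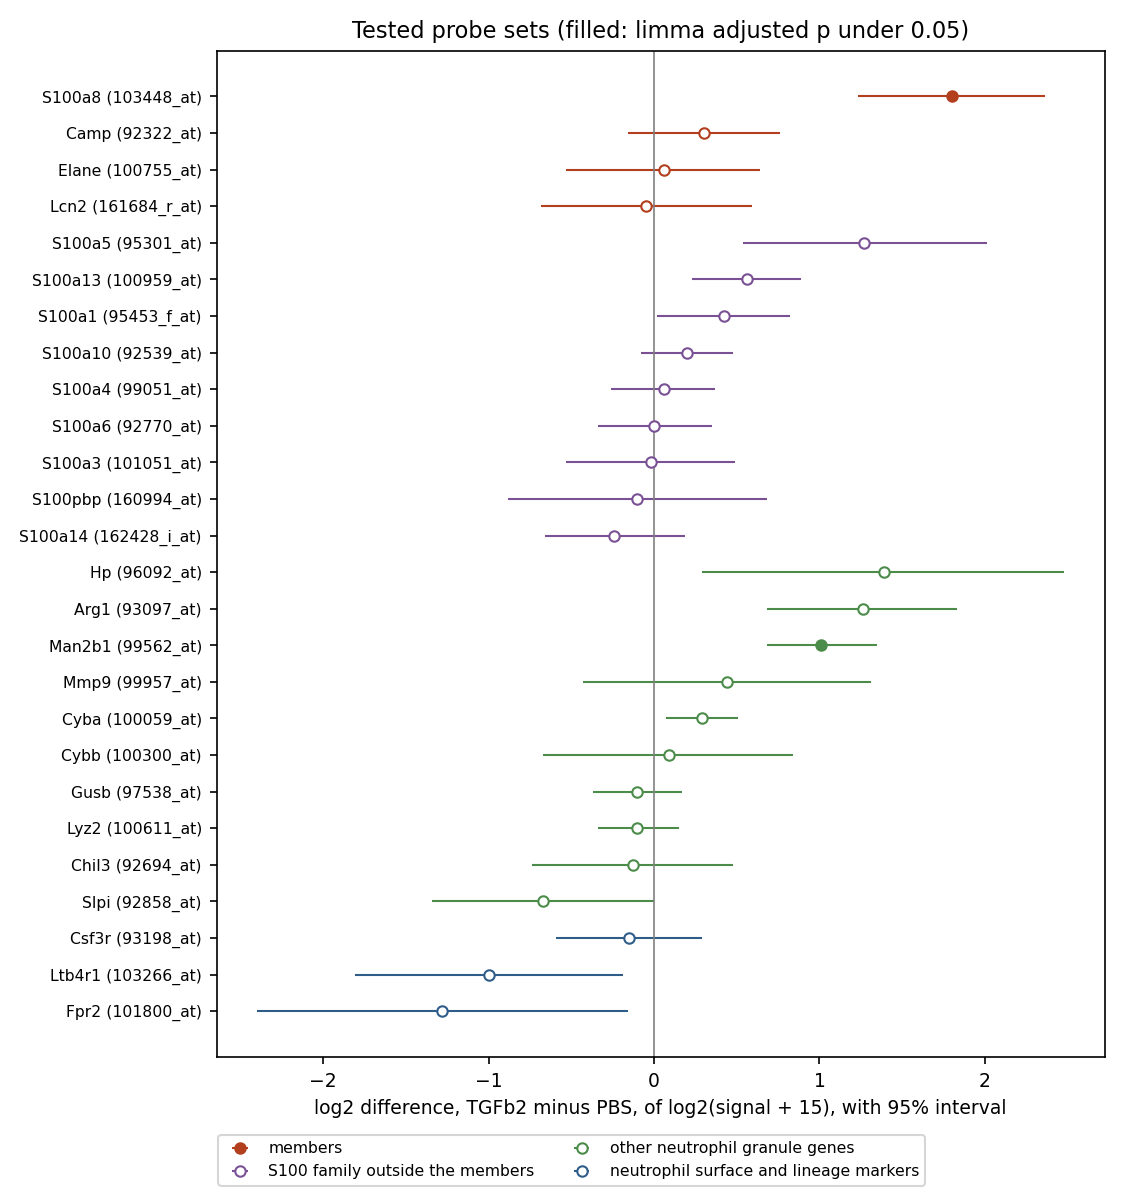
Log2 difference (TGFb2 minus PBS) with its 95% interval for the 4 tested probe sets of the calgranulin and granule genes, named members in the legend, and for the tested genes of 3 related lists, filled where the limma adjusted p is under 0.05. S100a8, at 1.80, and Man2b1, at 1.01, are the filled points. Genes of the 3 lists are drawn by their brightest tested probe set only. The Csf3r probe set that rose, with a log2 difference of 1.75, is therefore not drawn.

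Of 9 tested genes with S100 names other than the calgranulins, 0 passed in limma, and 3 had an unadjusted p under 0.05, all higher with TGFb2. Their median log2 difference was 0.06. S100a5 had 47.4 and 63.0 with TGFb2 and 20.4 and 8.5 with PBS (log2 difference 1.27, limma adjusted p = 0.143). It passed the filter only through the TGFb2 group, where it is high. S100a13, which takes part in the release of growth factors without a signal peptide, had 2438.0 and 2020.7 with TGFb2 and 1464.7 and 1538.0 with PBS (log2 difference 0.56, limma adjusted p = 0.147). Its other tested probe sets differed by 0.35 and 0.86, and none passed. S100a4 and S100a6, singled out after their values were seen, differed by 0.06 and 0.00.

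Receptors and adaptors through which calgranulins can act were represented by 6 genes, of which 5 were tested. An unadjusted p under 0.05 was reached by 2 of the 5 in limma, both lower with TGFb2. Cd14, the coreceptor of Toll-like receptor 4, named after its values were seen, had 1793.1 and 2079.2 with TGFb2 and 1798.5 and 2702.4 with PBS (limma adjusted p = 0.772). Cd36, a scavenger receptor, was the 1 gene of the list that fell, with 93.2 and 96.3 with TGFb2 and 234.4 and 207.2 with PBS (log2 difference -1.10, limma adjusted p = 0.0383).

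Of 10 tested regulators of granule genes 0 passed in limma, and 2 had an unadjusted p under 0.05, both higher with TGFb2. Cebpa, a transcription factor of the granulocyte and macrophage lineages, had 3217.5 and 4502.5 with TGFb2 and 1686.7 and 2302.6 with PBS. Its groups did not overlap, with a log2 difference of 0.94 and a 95% interval of 0.47 to 1.41 (limma adjusted p = 0.0884). The related Cebpg had 297.1 and 258.3 with TGFb2 and 156.6 and 188.4 with PBS (log2 difference 0.64, limma adjusted p = 0.195). Gfi1, given above, was among the 4 genes of this list below the filter.

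Of 8 tested acute phase and inflammation-inducible genes, 0 rose, 1 fell and 7 did not pass, with a median log2 difference of 0.05. An unadjusted p under 0.05 was reached by 3 of the 8 in limma, 1 higher and 2 lower with TGFb2. Il1rn, the interleukin 1 receptor antagonist, was the one that fell, with 710.6 and 961.9 with TGFb2 and 1969.2 and 2342.5 with PBS (limma adjusted p = 0.0244). Saa3, a serum amyloid gene made by stimulated macrophages and named after its values were seen, had 2477.8 and 2455.4 with TGFb2 and 2019.4 and 2223.1 with PBS (limma adjusted p = 0.548). Of 8 tested siderophore and iron handling genes 0 passed in limma, and 2 had an unadjusted p under 0.05. These were the metal transporters Slc11a2, with 418.8 and 557.7 with TGFb2 and 610.8 and 807.0 with PBS, and Slc11a1, with 1795.9 and 2330.7 with TGFb2 and 2826.3 and 3027.9 with PBS (limma adjusted p = 0.376 and 0.215).

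The genes whose profile over the 4 arrays was most like that of S100a8 were found by the Euclidean distance between centred log2 signals. Among 6718 tested probe sets with 1 symbol, the closest 5 genes were Apoc2, Usp2, Sphk1, Itgal and Sparc, at distances of 0.154 to 0.396. Apoc2, a lipoprotein component, had signals of 224.2 and 239.8 with TGFb2 and of 41.5 and 70.3 with PBS. Usp2, a deubiquitinating enzyme, had 183.4 and 186.5 with TGFb2 and 36.6 and 58.1 with PBS, and its other probe set differed by 0.63 (limma adjusted p = 0.223). Sphk1, a sphingosine kinase, had 64.2 and 66.7 with TGFb2 and 4.0 and 9.8 with PBS, and its log2 difference was 1.89 as reported and 3.18 with a pseudocount of 1. The integrin chain Itgal had 94.8 and 139.5 with TGFb2 and 15 and 22.4 with PBS, and the matrix protein gene Sparc had 195.4 and 240.3 with TGFb2 and 58.9 and 72.8 with PBS. The PBS signals of Sphk1 and Itgal lay below the filter level, where the pseudocount compresses differences. Their ratios of mean signals, 9.49 and 6.26, were larger than that of S100a8, 3.62, so their likeness is one on the log2(signal + 15) scale. Both genes passed the filter only through their TGFb2 signals.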

How the data were processed

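The deposited values are MAS5 signal intensities per probe set on a linear scale. MAS5 is named, without a version, per the submitters' processing notes. Cell files and detection calls were not used here. The 66 control probe sets were left out. Of the others, 10833 carried 1 symbol, 396 several and 1193 none in the platform annotation, and all 8 genes had the same symbol by gene ID in the GRCm38.p6 table. Probe sets at or above the 40th percentile of the mean signal (25.1), 7453 in all, were fitted by limma (version 3.58.1, R 4.3.3; lmFit and eBayes with an intensity trend) on log2(signal + 15), TGFb2 against PBS, two-sided, with Benjamini-Hochberg adjustment over all of them at 0.05. The log2 scale with this pseudocount understates changes of dim genes. Residual degrees of freedom were 2 and prior ones 5.59, with a median standard error of 0.208. The fit was checked on data simulated from its own variance model, which cannot show whether that model suits these arrays. The number of arrays limits the precision. Each gene of a list was represented by its brightest tested probe set.

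The 8 genes, the lists and the tests were chosen with earlier results of these data known. Named genes were all probe sets of the 8 genes, every neutrophil marker on the array, per list up to 2 passing genes per direction (where none passed, the 2 tested genes with the largest difference), and the 5 genes most like S100a8. Adgre1 was added to check the label, and other genes outside this rule are marked in the text. Alternatives covered the pseudocount, filter, normalization, variance model, replicate number and each array. No array or scan dates were used here.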

Additional observations from a re-analysis of the deposited data

How the results depend on the processing

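The log2 difference of S100a8 kept its direction in all 13 alternatives and passed in 9 of them. It was 1.80 and not past the threshold without the filter on dim probe sets and without the intensity trend, and it ran from 1.47 to 2.12 when each array was left out in turn, with a lone array assumed to vary like the other group. The number of the 10 probe sets past the threshold was 1 as reported, 0 without the filter and 0 without the trend, and 0 to 1 without single arrays (in each limma fit 1 had an unadjusted p under 0.05). Over all probe sets, 87 passed as reported, 56 with a pseudocount of 1, 6 without the filter, 13 without the trend, and 11 to 50 without single arrays. Of 79 tested genes on the other lists, 6 passed as reported and 0 without the trend, and 0 of 125 tested without the filter. An unadjusted p under 0.05 in limma was reached by 28 of 79 as reported, 21 of 79 without the trend and 27 of 125 without the filter. Over all probe sets that level was reached by 871 of 7453, 799 of 7453 and 1135 of 12422 in the same order. With the replicate number as a block, 324 probe sets and 18 list genes passed, and S100a8 did too (adjusted p = 2.3e-05). Deviations of arrays with the same number correlated at 0.142, and the labels do not say that a number marks a shared source, so this block was not used. A filter on the mean log2 signal, chosen after seeing the data, gave 88 calls. The median of the tested neutrophil markers ran from -1.46 to -0.15 over the settings, which did not all cover the same genes. As reported it covered 3 genes, among them Fpr2, which passed the filter only through the PBS group. The value of -0.15 came from the fit without the filter, over all 13 markers on the array. The Csf3r probe set that rose was not part of the reported median. The causes of these shifts were not tested. With 2 arrays per group and 6 of the 10 probe sets below the filter, small changes of the dim granule genes were not detectable.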
